A study of Mus musculus with 8 samples.

Results

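The genes of the G1 cyclins and CDK inhibitors set the pace at which a cell leaves the first gap phase of its cycle. The 10 genes examined were the D-type cyclins Ccnd1, Ccnd2 and Ccnd3, their kinases Cdk4 and Cdk6, the INK4 inhibitors Cdkn2b, Cdkn2c and Cdkn2d, and the CIP/KIP inhibitors Cdkn1a and Cdkn1b. They were chosen by symbol, and all 10 were found among the 24346 gene symbols of the deposited tables, with 14 transcripts between them. The data are 8 RNA-seq libraries of mouse uterine epithelium. Of these, 3 came from control mice and 5 from Smad2/3 cKO mice, called cKO below. The cKO genotype is Smad2 flox/flox; Smad3 flox/flox; Pgr-cre. In Smad2 exons 9 and 10, and in Smad3 exons 2 and 3, are flanked by loxP sites, and the Cre recombinase is a knock-in at the progesterone receptor gene. Per the labels, this Cre is also active after birth in ovary, oviduct, mammary gland and pituitary. Both groups shared the mixed C57BL/6/129S6/SvEv background. The sources used here do not give the alleles of the control mice, their age or the stage of the cycle.

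D-type cyclins bind CDK4 or CDK6 and activate them. The active kinase phosphorylates the retinoblastoma protein, which then releases E2F transcription factors that turn on genes for DNA synthesis. INK4 proteins bind CDK4 and CDK6 and keep the cyclin off, while CIP/KIP proteins bind whole cyclin-CDK complexes and are best known for blocking CDK2. In many epithelial cells TGF-beta stops the cycle in G1, in part because SMAD proteins induce Cdkn2b and Cdkn1a and repress Myc. In the uterus, oestrogen drives the epithelium through G1 and progesterone opposes it.

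Levels are given as scaled FPKM, the deposited FPKM (fragments per kilobase of transcript and per M mapped fragments) divided by 1 factor per library, between 0.924 and 1.06. Because FPKM is per length, levels of different genes can be set side by side. The estimated depth was 42.9 to 53.9 M mapped fragments per library. Nothing in the labels says that the libraries are from separate animals, so a p-value measures only how far these libraries vary, in part perhaps for technical reasons. Smad2 was lower in all 5 cKO libraries, with means of 3.58 ± 0.378 in cKO (SD, n = 5) and 6.07 ± 0.342 in control (SD, n = 3), and Smad3 was 30.7 ± 8.97 against 28.2 ± 3.07. Summed FPKM of Smad3 includes exons outside the deleted part, and is no check of the genotype. The 10 epithelial markers summed to between 4344 and 7147 scaled FPKM per library, against 57.2 to 257 for 11 stromal fibroblast markers. Several libraries stood apart. Control 1 had the highest smooth muscle marker sum, 384 scaled FPKM for 8 genes, against 16.0 to 125 in the other 7 libraries. By their titles, cKO 1 and cKO 2 are numbered apart from the other 6 libraries, which are called the main title series below. Both are cKO libraries, so a title series term in the model leaves cKO 3, 4 and 5 against control. That is also the comparison within the main title series, so these 2 settings are not independent of each other. Library cKO 3 had the highest and cKO 2 the lowest sum of mitosis genes among cKO libraries, as described at the end. The lowest estimated depth, 42.9 M, and the highest stromal fibroblast sum among cKO libraries, 251, were also those of cKO 3.

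Of the 10 genes, 1 was higher in cKO and 0 were lower (limma, Benjamini-Hochberg adjusted p below 0.05 over all 11315 genes tested). The called gene was Cdkn2d, which encodes the INK4 inhibitor p19. Over all genes tested, 7.27% were called higher and 6.98% lower, so the share of called members was near the background. The count at an unadjusted p below 0.05 was also 1 of 10, where 31.5% of all genes tested had such a p. The groups did not overlap for Cdkn2d alone among the members, and for 24.6% of all genes tested. The median log2 fold change of the members, cKO minus control on the log2(scaled FPKM + 1) scale, was 0.08, against -0.0050 over all genes tested. The median size without sign was 0.15 for the members and 0.22 for all genes tested. All 10 genes passed the filter of at least 1 scaled FPKM in at least 3 libraries. Cdkn2c passed only through 3 cKO libraries, so its difference was favoured by the filter, and Ccnd2 passed through 1 control and 2 cKO libraries.

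**Figure D1:**
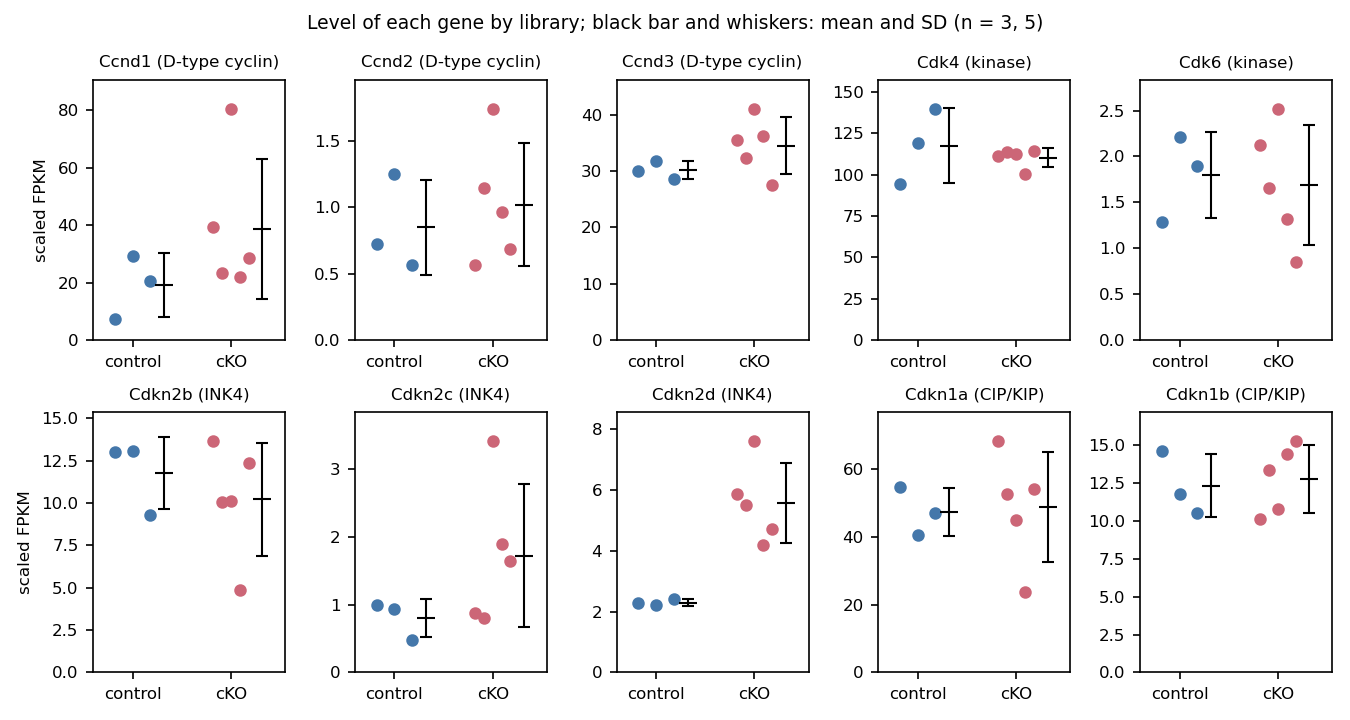
Scaled FPKM of each of the 10 genes by library, with 3 control libraries in blue and 5 cKO libraries in red, in order of replicate number; black bars and whiskers are the mean and SD. Each panel has its own axis from 0, and the groups are apart for Cdkn2d, where the controls lie between 2.21 and 2.41 and the cKO libraries between 4.19 and 7.61.

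**Figure D2:**
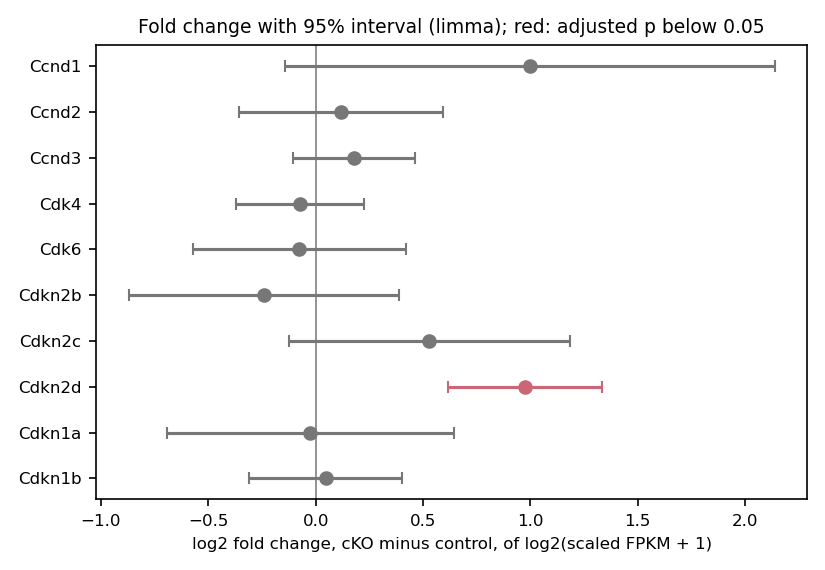
Log2 fold change of each gene, cKO minus control, on the log2(scaled FPKM + 1) scale, with the 95% interval of the limma fit; red marks an adjusted p below 0.05. The interval of Cdkn2d, 0.62 to 1.33, lies above 0, and the intervals of the other 9 genes include 0.

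Among the D-type cyclins, Ccnd1 and Ccnd3 made up nearly all of the summed level, and no cyclin was called in either direction. Ccnd1, the cyclin most closely tied to growth factor and hormone signals, is encoded at chr7:144929931-144939925 (mm10, minus strand). Its level was 7.39, 29.4 and 20.5 scaled FPKM in controls 1 to 3, against 39.5, 23.3, 80.5, 21.9 and 28.5 in cKO 1 to 5. Libraries cKO 1 and cKO 3 lay above every control, the other 3 cKO libraries lay within the control range, and control 1 was the lowest of the 8. The intervals that the deposited tables give for single libraries, taken here as 95% intervals, were no wider than 6.70% of the value on either side. The spread between libraries was thus larger than the counting error within them. The means were 38.7 ± 24.3 (SD, n = 5) in cKO and 19.1 ± 11.1 (SD, n = 3) in control, a ratio of 2.03. The log2 fold change of Ccnd1 was 1.0 ± 0.50 (SE; limma, Benjamini-Hochberg adjusted p = 0.207; two-sided exact permutation p = 0.161). Its 95% interval ran from -0.14 to 2.14, so no difference and a rise by 2.14 on the log2 scale both lie within it. Without control 1 the log2 fold change was 0.46, without cKO 3 it was 0.70, and within the main title series it was 1.1. None of the 20 alternative settings called Ccnd1 (lowest adjusted p 0.179). In the GENCODE annotation of the same build LTO1, on the opposite strand and with no value here, shares 1100 exonic bases with Ccnd1, 23.4% of its exons.

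Ccnd3, a cyclin with broad expression in differentiated and cycling tissues, was the steadiest of the 3. At chr17:47505051-47599688 (plus strand), its level was 30.1, 31.8 and 28.6 scaled FPKM in controls 1 to 3. It was 35.4, 32.3, 41.0, 36.3 and 27.6 in cKO 1 to 5. Libraries cKO 1 to 4 lay above every control and cKO 5 below every control. The log2 fold change was 0.18 ± 0.13 (limma adjusted p = 0.355; exact permutation p = 0.214), with a 95% interval from -0.11 to 0.46, and it turned to -0.02 with TPM. Ccnd3 has 3 transcripts in the tables, from 2 start sites. The 1979-base transcript from the downstream start carried 82.5% ± 1.20 of the gene's FPKM in control. In cKO it carried 80.8% in cKO 2 and the whole level in the other 4 libraries. The 2073-base transcript from the upstream start stood at 5.67, 5.39 and 4.76 scaled FPKM in controls 1 to 3 and 6.21 in cKO 2, and is listed at 0 in cKO 1, 3, 4 and 5. An exact 0 in such tables can come from the way fragments shared by transcripts are assigned, and Bysl, a gene on the other strand, overlaps the last 358 bases of Ccnd3. The change in transcript was not tested.

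Ccnd2, at chr6:127125709-127151048 (minus strand), was near the filter in every library, with 0.727, 1.25 and 0.568 scaled FPKM in controls 1 to 3. The values were 0.568, 1.14, 1.74, 0.963 and 0.687 in cKO 1 to 5. Ccnd2, the cyclin that dominates in several endocrine and lymphoid tissues, thus supplied between 0.752% and 2.01% of the summed D-type cyclin level. The groups overlapped, and the log2 fold change was 0.12 ± 0.21 (limma adjusted p = 0.733; exact permutation p = 0.661), with a 95% interval from -0.36 to 0.59.

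The summed D-type cyclin level was 38.2, 62.5 and 49.6 scaled FPKM in controls 1 to 3, against 75.5, 56.7, 123, 59.2 and 56.8 in cKO 1 to 5. Ccnd1 made up 19.4% of this sum in control 1, 47.1% in control 2 and 41.3% in control 3. In the cKO libraries its share lay between 37.0% and 65.3%, and the largest share was that of cKO 3. The shares thus overlapped between groups. In control 1 the level of Ccnd1 was 0.246 of that of Ccnd3, in cKO 3 it was 1.96 times as high, and in the other 6 libraries the ratio lay between 0.604 and 1.12.

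**Figure D3:**
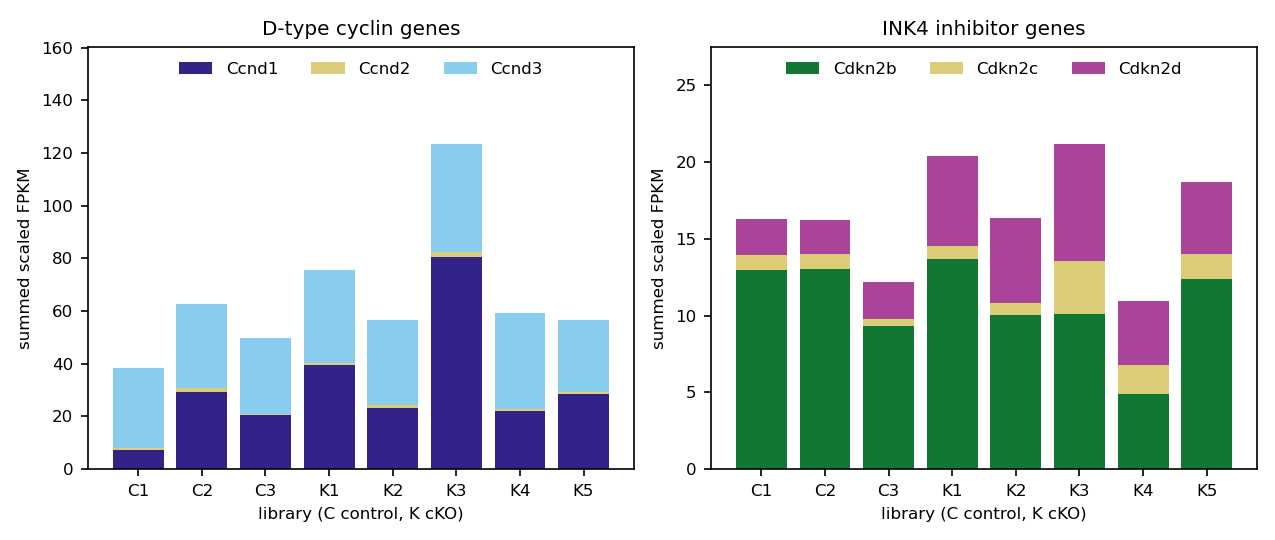
Stacked scaled FPKM of the D-type cyclin genes (left) and of the INK4 inhibitor genes (right) in each library, with C for control and K for cKO. Ccnd1 takes 65.3% of the cyclin sum in cKO 3, and Cdkn2d takes 13.6% to 19.7% of the INK4 sum in control and 25.2% to 38.3% in cKO.

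Of the 2 kinases, Cdk4 was the most abundant of the 10 genes and Cdk6 was low. Cdk4, at chr10:127063603-127067282 (plus strand), stood at 94.2, 119 and 140 scaled FPKM in controls 1 to 3. In cKO 1 to 5 it was 111, 113, 112, 100.4 and 114. All 5 cKO libraries lay within the control range, and the cKO group was the tighter one, with an SD of 5.64 against 22.8. The log2 fold change was -0.07 ± 0.13 (limma adjusted p = 0.729; exact permutation p = 0.607), with a 95% interval from -0.37 to 0.22. In the deposited gene models Tspan31, on the opposite strand, ends 7 bases from the end of Cdk4, but in the fuller GENCODE annotation of the same build the 2 genes share 641 exonic bases, 19.7% of the exons of Cdk4. Tspan31 was 52.2 ± 2.69 in control and 69.9 ± 8.28 in cKO. The sources used here do not say whether the authors counted by strand. Cdk6, at chr5:3344312-3522225 (plus strand), was 1.29, 2.21 and 1.89 in controls 1 to 3. Its cKO values were 2.12, 1.66, 2.52, 1.32 and 0.852. The groups overlapped on both sides, and the log2 fold change was -0.08 ± 0.22 (limma adjusted p = 0.839; exact permutation p = 0.768), with a 95% interval from -0.57 to 0.42. Cdk4 was 53.8 to 73.9 times as high as Cdk6 in control and 44.7 to 134 times in cKO, so most RNA for the kinase was Cdk4 in both groups.

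The INK4 inhibitors differed from each other in how they stood in cKO. Cdkn2d was higher in every cKO library, Cdkn2c was higher in 3 of the 5, and Cdkn2b overlapped between groups. Cdkn2d lies at chr9:21288464-21291209 (minus strand) and has 1 transcript of 1270 bases in the tables. Its level was 2.28, 2.21 and 2.41 scaled FPKM in controls 1 to 3. It was 5.89, 5.52, 7.61, 4.19 and 4.72 in cKO 1 to 5. The controls differed by a factor of 1.09, the cKO libraries by 1.82, and each cKO library was 1.82 to 3.31 times the control mean. The means were 5.59 ± 1.31 (SD, n = 5) and 2.30 ± 0.101 (SD, n = 3), a ratio of 2.43. The deposited 95% interval of single libraries reached at most 2.79 in control and at least 3.66 in cKO, so the groups were apart beyond the counting error as well. Cdkn2d rose by 0.98 ± 0.16 on the log2 scale (SE; limma, Benjamini-Hochberg adjusted p = 0.00624; 95% interval 0.62 to 1.33). The exact permutation p was 0.0179, the smallest that the 56 splits of 8 libraries into 3 and 5 allow. The call held in all 20 alternative settings, with log2 fold changes from 0.87 to 1.22 and adjusted p from 0.00102 to 0.0413. Within the main title series, with 3 libraries a group, it was 0.95 ± 0.20 (limma adjusted p = 0.0328).

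Cdkn2d is expressed in many cell types, among them blood cells, so marker levels are given beside it. In bulk RNA, fewer cells of a type and less RNA per cell cannot be told apart. Sums of 6 neutrophil markers were 213 to 413 scaled FPKM in control and 309 to 1987 in cKO, with 4 of 5 cKO libraries above every control. Of the 6, 5 had an unadjusted limma p below 0.05, where 31.5% of all genes tested did. Retnlg and Il1r2, 2 of the 6, were called higher, where 7.27% of all genes tested were. Retnlg was 0.709, 0.752 and 1.57 in controls 1 to 3, so it passed the filter mainly through cKO libraries. Its call was thus favoured by the filter. Sums of 6 general leukocyte markers were 36.5 to 62.4 and 40.5 to 126, with 3 of 5 above every control. Of these 6, 5 had a positive log2 fold change, with a median of 1.13 over the 6. All 6 had an unadjusted limma p below 0.05, where 31.5% of all genes tested did. At the adjusted threshold 0 were called higher and 1 lower, Laptm5, which was 14.0 ± 2.88 in control and 6.71 ± 2.85 in cKO (limma adjusted p = 0.0436). Sums of the 6 macrophage markers in the tables were 87.5 to 131 in control and 55.7 to 108 in cKO, with 4 of 5 cKO libraries below every control. Of 5 tested, 0 were called by limma and 1 had an unadjusted p below 0.05. The 5 lymphocyte markers in the tables summed to at most 3.08 in any library. The lowest neutrophil sum among cKO libraries, 309, was that of cKO 4, which also had the lowest Cdkn2d, 4.19, and the highest, 1987, was that of cKO 3, which had the highest Cdkn2d, 7.61. Between these extremes the order differed. The neutrophil sum was 1795 in cKO 5, 1270 in cKO 1 and 1193 in cKO 2, where Cdkn2d was 4.72, 5.89 and 5.52. In cKO 4 the neutrophil and leukocyte sums lay within the control range, where Cdkn2d was above every control. Single markers in cKO 4 differed from these sums. Retnlg was 2.39 and Il1r2 13.6 there, against at most 1.57 and 13.2 in control. Laptm5 was 5.09 there, below every control. The part of blood cells in the rise of Cdkn2d was not tested. The neighbouring genes of Cdkn2d are Kri1, with a gap of 494 bases, and Ap1m2, with a gap of 4247 bases, and no deposited gene model overlaps it. With the stromal and muscle marker level in the model, the log2 fold change of Cdkn2d was 1.1 (limma adjusted p = 0.0161). With TPM, where the median log2 fold change of all genes tested moves from -0.0050 to -0.20, it was 0.94, or 1.14 relative to that median.

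Cdkn2c, which encodes the INK4 inhibitor p18 and is itself a known E2F target, lies at chr4:109660876-109666756 (minus strand). Its level was 0.988, 0.935 and 0.477 scaled FPKM in controls 1 to 3. It was 0.873, 0.802, 3.41, 1.89 and 1.64 in cKO 1 to 5. Libraries cKO 3, 4 and 5, all of the main title series, lay above every control, and cKO 1 and cKO 2 lay within the control range. The log2 fold change of Cdkn2c was 0.53 ± 0.29 (limma adjusted p = 0.240; exact permutation p = 0.232), with a 95% interval from -0.13 to 1.18. It was 0.87 ± 0.23 within the main title series (limma adjusted p = 0.0618) and 0.85 ± 0.22 with the title series as a term, where it was called (limma adjusted p = 0.0428). Both settings set cKO 3, 4 and 5 against control. Cdkn2c passed the filter only through these libraries, so the call was favoured by the filter.

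The tables split Cdkn2c between 2 transcripts with different starts, and the higher values in cKO 3, 4 and 5 lay mostly in 1 of them. The 2038-base transcript, which begins at the upstream start, was 0.245, 0.365 and 0.201 scaled FPKM in controls 1 to 3, against 0.345, 0.210, 2.21, 1.26 and 1.04 in cKO 1 to 5. The 1106-base transcript from the downstream start was 0.743, 0.570 and 0.276 in the 3 control libraries and 0.528, 0.592, 1.20, 0.626 and 0.606 in the 5 cKO ones. In cKO 3, 4 and 5 the longer transcript thus carried 64.8%, 66.8% and 63.1% of the gene's FPKM, against 24.8% to 42.2% in the controls and 39.5% and 26.2% in cKO 1 and cKO 2. The lowest deposited 95% bound of the longer transcript in these 3 libraries, 0.803, was above the highest bound in any control, 0.495. For the shorter transcript the intervals of cKO 4 and cKO 5 overlapped those of controls 1 and 2. These shares rest on the authors' assignment of fragments between overlapping transcripts and were not tested.

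**Figure D4:**
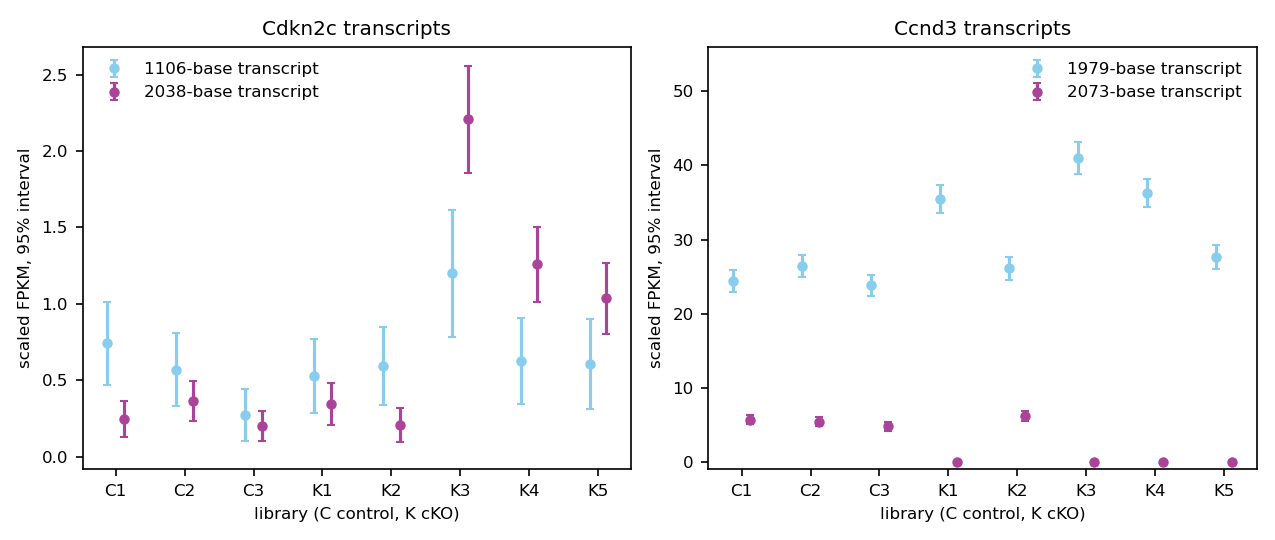
Scaled FPKM of transcripts of Cdkn2c (left) and Ccnd3 (right) in each library, with the interval of the deposited tables, taken as 95%. C is control and K is cKO. The 2038-base Cdkn2c transcript is at 1.04 to 2.21 in K3 to K5 and at most 0.365 elsewhere, and the 2073-base Ccnd3 transcript is listed at 0 in 4 cKO libraries.

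Sequences around the starts of the 3 INK4 genes show how the windows differ that these transcripts begin from. They are RefSeq windows on GRCm38.p6 (the same coordinates as mm10), each from 250 bases before to 50 bases after a start, and were found for 8 of the 10 genes with 11 starts in all. Capitals mark CAGAC or its reverse GTCTG, the short DNA element that SMAD3 and SMAD4 bind, and a match is a description of letters, not of binding. The windows are chr9:21291160-21291459 for Cdkn2d, chr4:109666707-109667006 and chr4:109665323-109665622 for the upstream and downstream starts of Cdkn2c, and chr4:89310983-89311282 for Cdkn2b, all on the minus strand.
Cdkn2d: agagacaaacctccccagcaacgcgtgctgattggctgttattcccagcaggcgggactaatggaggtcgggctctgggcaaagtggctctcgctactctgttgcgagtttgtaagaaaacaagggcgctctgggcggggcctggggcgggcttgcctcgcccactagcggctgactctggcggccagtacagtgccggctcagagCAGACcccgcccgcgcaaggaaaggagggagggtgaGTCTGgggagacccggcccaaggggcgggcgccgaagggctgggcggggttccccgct
Cdkn2c upstream start: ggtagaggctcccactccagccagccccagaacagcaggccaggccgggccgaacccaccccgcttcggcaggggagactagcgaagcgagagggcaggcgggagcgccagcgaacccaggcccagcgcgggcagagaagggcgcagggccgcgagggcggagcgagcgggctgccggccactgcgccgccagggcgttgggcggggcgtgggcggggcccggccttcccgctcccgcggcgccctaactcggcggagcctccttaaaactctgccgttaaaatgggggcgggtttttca
Cdkn2c downstream start: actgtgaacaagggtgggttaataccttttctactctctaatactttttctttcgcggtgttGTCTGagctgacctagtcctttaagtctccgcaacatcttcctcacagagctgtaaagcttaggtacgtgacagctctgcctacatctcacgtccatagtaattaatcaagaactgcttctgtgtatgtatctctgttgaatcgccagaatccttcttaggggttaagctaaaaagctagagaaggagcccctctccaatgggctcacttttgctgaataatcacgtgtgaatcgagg
Cdkn2b: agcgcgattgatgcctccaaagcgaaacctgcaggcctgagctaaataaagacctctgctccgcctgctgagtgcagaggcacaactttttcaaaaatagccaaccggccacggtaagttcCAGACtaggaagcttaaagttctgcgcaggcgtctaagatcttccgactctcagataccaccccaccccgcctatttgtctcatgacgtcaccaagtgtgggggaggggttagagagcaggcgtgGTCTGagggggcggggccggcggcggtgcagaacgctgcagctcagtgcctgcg
Cdkn2d held 2 such matches, beginning 44 and 8 bases before the start, Cdkn2b held 2, the downstream Cdkn2c window 1 and the upstream one 0. Of all 32851 windows 49.6% held at least 1, so a match is common. The upstream Cdkn2c window was 73.3% G and C with 33 CpG pairs, and the downstream one 44.0% with 8. The Cdkn2d window was 66.3% G and C, where the median of all windows was 52.7%. It held 5 copies of the GC box GGGCGG on either strand, a motif that 35.7% of all windows held at least once, and none of the 5 overlapped a marked match. The E2F letters TTTCCCGC, TTTGGCGC or TTCCCGCC, searched on both strands, were in 0 of the 11 windows and in 3.21% of all windows.

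Cdkn2b encodes p15, the INK4 inhibitor best known as induced by TGF-beta through SMAD proteins. It lies at chr4:89306289-89311032 (minus strand), and its level was 13.0, 13.1 and 9.32 scaled FPKM in controls 1 to 3. It was 13.7, 10.0, 10.1, 4.87 and 12.4 in cKO 1 to 5. Library cKO 4 was below every control, cKO 1 above every control, and the other 3 within the control range. The log2 fold change of Cdkn2b was -0.24 ± 0.28 (limma adjusted p = 0.581; exact permutation p = 0.607), with a 95% interval from -0.87 to 0.39. These data therefore do not show a fall of Cdkn2b in cKO, and a fall by up to 0.87 on the log2 scale lies within the interval. Cdkn2a, its neighbour in the same locus and the fourth INK4 gene, was at most 0.106 scaled FPKM in any library and was not tested.

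Cdkn2b was the most abundant INK4 gene in every library, but its lead over Cdkn2d differed between the groups. It was 5.69, 5.91 and 3.87 times as high as Cdkn2d in controls 1 to 3 and 2.32, 1.82, 1.33, 1.16 and 2.62 times in cKO 1 to 5. The share of Cdkn2d in the summed INK4 level was 14.0%, 13.6% and 19.7% in control and 28.8%, 33.7%, 36.0%, 38.3% and 25.2% in cKO, so the ranges did not overlap. The summed INK4 level itself overlapped, at 14.9 ± 2.32 (SD, n = 3) in control and 17.5 ± 4.11 (SD, n = 5) in cKO. These shares restate the rise of Cdkn2d and carry no test of their own.

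The CIP/KIP genes were at like mean levels in both groups. Cdkn1a encodes p21, which is induced by p53 and, in many epithelia, by TGF-beta. At chr17:29090986-29100722 (plus strand), it stood at 54.6, 40.6 and 46.9 scaled FPKM in controls 1 to 3. It was 68.2, 52.7, 45.0, 23.7 and 54.2 in cKO 1 to 5, with cKO 1 above and cKO 4 below every control. The means were 48.7 ± 16.3 (SD, n = 5) and 47.3 ± 7.01 (SD, n = 3). The log2 fold change was -0.03 ± 0.29 (limma adjusted p = 0.960; exact permutation p = 0.929). Its 95% interval, -0.69 to 0.64, is wide, and the sign turned to 0.21 without cKO 4. Of the 2 Cdkn1a transcripts in the tables, the 1910-base one from the downstream start carried the whole level in all 8 libraries, and the 1936-base one is listed at 0 in each.

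Cdkn1b encodes p27, an inhibitor controlled mostly through protein breakdown, so its RNA need not follow its protein. At chr6:134920401-134925525 (plus strand), it was 14.6, 11.8 and 10.5 scaled FPKM in controls 1 to 3. It was 10.1, 13.4, 10.8, 14.4 and 15.3 in cKO 1 to 5. The groups overlapped, and the log2 fold change was 0.05 ± 0.16 (limma adjusted p = 0.862; exact permutation p = 0.839), with a 95% interval from -0.31 to 0.40. Cdkn1a was 3.44 to 4.45 times as high as Cdkn1b in control and 1.65 to 6.74 times in cKO, the lowest ratio being that of cKO 4. The third gene of the family, Cdkn1c, was 1.03 ± 0.102 in control and 1.01 ± 0.350 in cKO (limma adjusted p = 0.912).

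The genes that act next to the 10 in the passage from G1 to S phase were described by fixed lists. For counts at an unadjusted p below 0.05 in these lists, the share over all genes tested was 31.5%. Of 8 genes of the cyclin E and cyclin A module with CDK2, 5 were tested and 0 called by limma in either direction, while 3 had an unadjusted p below 0.05 (median log2 fold change 0.19). Within the main title series 2 were called higher, where 6.56% of all genes tested were. With the title series as a term, which makes the same comparison, the same 2 were called, where 7.09% were. They were Ccne1 and the cyclin A gene Ccna2, both named here after their values were seen, and Ccna2 was also called without cKO 2 and with array weights. Ccna2 is listed at 0 in every control and in cKO 2, and was 3.64, 21.5, 8.93 and 5.09 in cKO 1, 3, 4 and 5. Ccna2 passed the filter only through these cKO libraries. Among controls Ccne1 reached 1 scaled FPKM in control 2 alone, and it passed the filter mainly through cKO libraries. The calls of both genes were thus favoured by the filter. The 2 most abundant were the kinase gene Cdk2, at 10.1 ± 1.49 in control and 11.7 ± 2.04 in cKO, and the phosphatase gene Cdc25a, at 11.9 ± 1.96 and 8.65 ± 1.93. Cdc25a was called lower with array weights (limma adjusted p = 0.0182) and without cKO 3 (0.0315). Ccne1, which encodes cyclin E1, was 0.277, 1.10 and 0.521 in controls 1 to 3, against 1.04, 0.878, 5.31, 3.28 and 2.20 in cKO 1 to 5. Like Cdkn2c, it was above every control in cKO 3, 4 and 5 and within the control range in cKO 1 and cKO 2, and its log2 fold change was 1.0 ± 0.39 (limma adjusted p = 0.123). Of 13 retinoblastoma-family and E2F genes, 12 were tested and 0 called by limma, with 3 at an unadjusted p below 0.05 and a median of 0.24. With the title series as a term 3 were called higher, E2f2, E2f8 and Rb1, the retinoblastoma gene. E2f2 and Rb1 were also called within the main title series, without cKO 2 and with array weights, where 15.8% of all genes tested were called higher. Further calls were those of E2f2 with quantile normalization, with pseudocount 0.1 and without a variance trend, and of Rb1 with the stromal and muscle marker level in the model. In the main fit E2f2 was just above the threshold (limma adjusted p = 0.0513). These 3 genes are named after their calls were seen, and E2f8 passed the filter only through cKO 3, 4 and 5. The most abundant were E2f4, a repressor E2F, at 30.1 ± 1.5 and 28.9 ± 2.19, and the E2F partner Tfdp1, at 14.0 ± 0.440 and 16.9 ± 2.24.

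Of 9 genes for ubiquitin ligase parts that act on cyclins and inhibitors, all tested, 3 had an unadjusted limma p below 0.05 (median -0.07). At the adjusted threshold 1 rose and 0 fell, where 7.27% and 6.98% of all genes tested did. The gene that rose was Cks1b, the cofactor with which the SCF ligase recognises p27. Cks1b was 9.78, 6.74 and 6.96 scaled FPKM in controls 1 to 3, against 24, 14.0, 43.8, 33.0 and 18.8 in cKO 1 to 5. All 5 cKO libraries were above every control, and the log2 fold change was 1.56 ± 0.33 (limma adjusted p = 0.0167). The call was lost without control 2 (adjusted p = 0.0840) and without control 3 (0.0796), at log2 fold changes of 1.48 and 1.5. The 3 genes of the CDK-activating kinase were tested, with 0 called by limma and 0 at an unadjusted p below 0.05. Ccnh was 8.80 ± 0.968 in control and 9.07 ± 1.17 in cKO, and Mnat1 6.45 ± 0.144 and 7.36 ± 0.496.

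Of 18 transcription regulators of the 10 genes, 15 were tested and 2 had an unadjusted limma p below 0.05 (median 0.03). At the adjusted threshold 0 rose and 2 fell, where 7.27% and 6.98% of all genes tested did. Mycl, a MYC family member, fell from 12.7 ± 2.71 to 6.06 ± 1.04, and its log2 fold change was -0.95 ± 0.16 (limma adjusted p = 0.00770). Foxo3, a FOXO factor that can act with SMAD3 at Cdkn1a, fell from 11.1 ± 0.628 to 7.0 ± 1.11, and its log2 fold change was -0.61 ± 0.13 (limma adjusted p = 0.0188). The call of Mycl was lost without control 3 (adjusted p = 0.0501), at a log2 fold change of -0.90. The call of Foxo3 was lost without control 2 (0.0819), without control 3 (0.0914) and with the stromal and muscle marker level in the model (0.0643), at log2 fold changes of -0.62, -0.57 and -0.64, so its size stayed close to -0.61. With the title series as a term Foxm1, named after its call was seen, was called higher. Foxm1 passed the filter only through cKO 3, 4 and 5, so this call was favoured by the filter. Myc, named after its values were seen, was 5.66, 11.4 and 7.27 in controls 1 to 3, against 14.0, 9.08, 14.8, 6.92 and 6.66 in cKO 1 to 5 (limma adjusted p = 0.528). Its groups overlapped, and cKO 1 and cKO 3, the libraries with the most Ccnd1, were the 2 above every control. Of 14 p53 targets beside Cdkn1a, 13 were tested and 2 had an unadjusted limma p below 0.05 (median 0.17). At the adjusted threshold 0 rose and 1 fell, against the same 7.27% and 6.98%. The gene that fell was Sesn1, from 3.21 ± 0.768 to 1.84 ± 0.217. Its call was lost in 9 of 19 alternative settings, among them without control 1, control 3, cKO 1 or cKO 5.

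Proliferation genes differed widely between the cKO libraries. The 22 mitosis genes summed to 14.2, 17.8 and 12.2 scaled FPKM in controls 1 to 3 and to 72.2, 14.5, 407, 184 and 88.8 in cKO 1 to 5. Of 19 tested, 0 were called by limma and 17 had an unadjusted p below 0.05, with a median log2 fold change of 1.73. The most abundant were Ube2c, at 2.81 ± 0.690 in control and 21.8 ± 20.9 in cKO, and Birc5, at 1.11 ± 0.300 and 15.2 ± 14.8. Of the same 19, 18 were called higher within the main title series and the same 18 with the title series as a term, against 6.56% and 7.09% of all genes tested. These 2 settings make the same comparison. Without cKO 2 there were 15, against 6.8%. With array weights and every library kept there were 17, against 15.8%. Pseudocount 0.1 and the stromal and muscle marker level in the model each gave 2. Most of the 19 were below 1 scaled FPKM in every control and passed the filter only through cKO libraries. Their calls were thus favoured by the filter. The 23 DNA replication genes summed to 77.4 to 118 in control and 87.1 to 329 in cKO. Of 21 tested, 0 were called by limma and 5 had an unadjusted p below 0.05, where 31.5% of all genes tested did, with a median of 0.56. Within the main title series 6 of the 21 were called higher, and 9 with the title series as a term, against 6.56% and 7.09% of all genes tested. Some of these called genes were below 1 scaled FPKM in most or all controls and passed the filter mainly through cKO libraries. Such calls were favoured by the filter. The most abundant were Pcna, at 17.8 ± 3.84 and 24.2 ± 7.55, and Rrm1, at 8.85 ± 1.34 and 13.9 ± 8.61.

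Set beside these sums, Cdkn2d was above every control in cKO 2, at 5.52, where the mitosis sum of 14.5 lay within the control range. Without cKO 2 its log2 fold change was 0.98 (limma adjusted p = 0.0155). Cdkn2c was within the control range in cKO 2 and also in cKO 1, whose mitosis sum of 72.2 was above every control. Ccnd1 was highest in cKO 3, which also had the highest mitosis sum, but in cKO 4, with the second highest sum of 184, Ccnd1 was 21.9 and within the control range. Library cKO 3 also had the highest Ccnd2 (1.74), Ccnd3 (41.0), Cdk6 (2.52), Cdkn2c (3.41) and Cdkn2d (7.61) of the 8, while Cdk4, at 112, was within the control range there. In cKO 4 Ccnd3 was above every control, and Ccnd2, Cdk4 and Cdk6 were within the control range. In the same library the inhibitor genes Cdkn1a and Cdkn2b were at their lowest of all 8 libraries, at 23.7 and 4.87. Cdkn1b was at 14.4 there, within the control range. The part of proliferation in any of these differences was not tested.

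**Figure D5:**
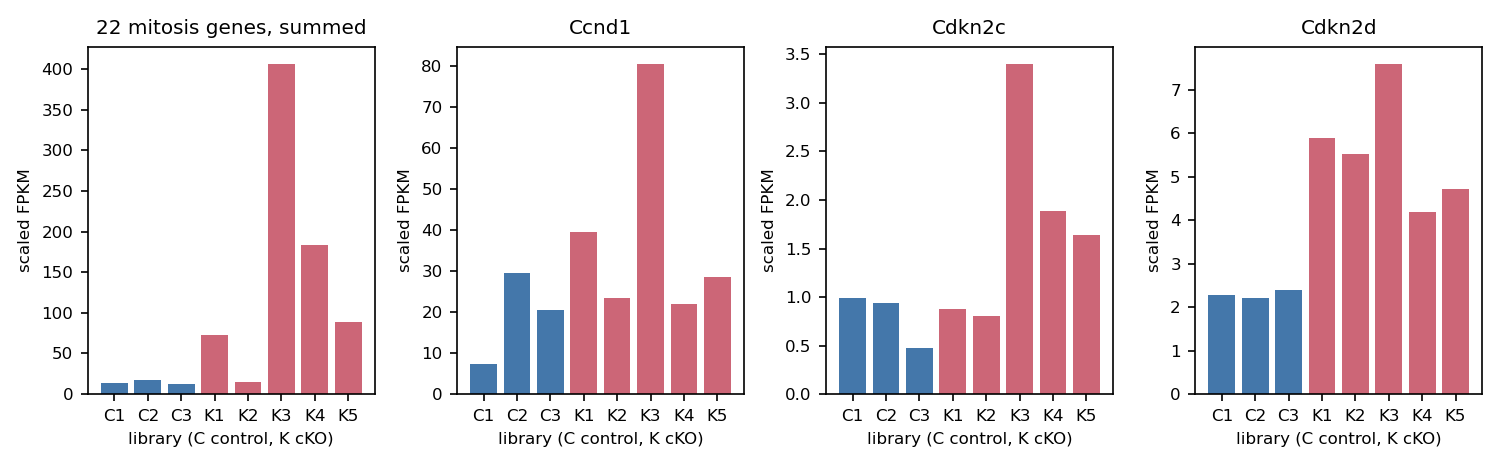
Summed scaled FPKM of 22 mitosis genes and scaled FPKM of Ccnd1, Cdkn2c and Cdkn2d in each library, with C for control (blue) and K for cKO (red); each panel has its own axis from 0. Cdkn2d is above every control in K2, at 5.52, where the mitosis sum is 14.5 and within the control range.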

How the data were processed

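Per the labels' protocols, cDNA was primed with random and poly d(T) primers (NuGEN Ovation RNA-Seq System V2) and sequenced on an Illumina HiSeq. The submitters' processing notes name bcl2fastq 1.8.3, TopHat, Cufflinks and mm10. Other tool versions, the annotation release and strand use were not stated there. The deposited files hold FPKM per RefSeq transcript with a lower and an upper confidence bound, computed by the authors for each library, per the file headers. The headers give no level for these bounds, which were taken as a 95% interval. FPKM was summed per symbol, 15 genes whose status was not OK in some library were left out, and libraries were scaled by median ratios over 9939 genes. Depth was estimated from the width of the intervals. Fragment numbers below 20 recovered this way were within 0.02 of a whole number for 66.9% to 69.6% of genes, so no count test was run.

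The test was limma 3.58.1 (R 4.3.3), two-sided and with a variance trend, on log2(scaled FPKM + 1). It covered all 11315 genes with at least 1 scaled FPKM in at least 3 libraries, with Benjamini-Hochberg adjustment. Single genes were also tested by exact permutation. The 10 genes and the lists were chosen with earlier results of these data known. The text names by rule all 10 genes, Smad2, Smad3, and of each list up to 4 called genes or the 2 most abundant. Named beside the rule were Cdkn1c and Cdkn2a, as the other genes of the inhibitor families, and, after their values were seen, Ccne1, Ccna2, Myc, Foxm1, E2f2, E2f8, Rb1, Laptm5, Retnlg and Il1r2. The 20 alternatives were other scalings, pseudocount, filters, status, variance models, leaving out libraries, the title series, and the marker level of stroma and muscle in the model.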

Additional observations from a re-analysis of the deposited data

Results flagged for a closer look

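Each gene's 5 cKO libraries were searched for 1 library far from the rest, a rule that flags about 5% of groups by chance. Of the 10 genes this marked Cdk4, which was 100.4 scaled FPKM in cKO 4 where the nearest other cKO library was at 111. The gap was 0.785 of the range of the group, above the critical value of 0.710. The value in cKO 4 still lay within the control range of 94.2 to 140.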

How the results depend on the processing

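No paired analysis was possible because the labels give no replicate numbers that the groups share. Over all genes, 823 were called higher and 790 lower. TPM gave 510 and 1662 (23.5% of calls higher in place of 51.0%), array weights 1793 and 1733, and the stromal and muscle marker level in the model 359 and 307. Leaving out 1 library gave 238 to 928 higher and 176 to 887 lower, with 238 and 186 without control 2, 242 and 176 without control 3, and 441 lower without control 1. Of the 10 genes, 1 was called higher in 19 of 20 settings, leaving out each library included. With the title series as a term 2 were called higher, where Cdkn2c, favoured by the filter, was added. In each setting 0 were called lower. The log2 fold changes that turned sign were all uncalled. They were Ccnd2 with array weights (-0.021), Ccnd3 with TPM (-0.022), Cdkn1a with array weights (0.066) and the marker level (0.098), and Cdkn1b without a scale factor (-0.011) and with TPM (-0.15). Ccnh turned without a scale factor (-0.020), with TPM (-0.16), array weights (-0.015) and the marker level (-0.0047), Mnat1 with TPM (-0.018), and Smad3 with TPM (-0.13), array weights (-0.019), within the main title series (-0.18) and with the title series as a term (-0.19). Leaving out 1 library took Cdk4 from -0.22 to 0.058, Cdk6 from -0.21 to 0.050, Cdkn1a from -0.16 to 0.21, Cdkn1b from -0.050 to 0.17, Ccnh from -0.049 to 0.11 and Smad3 from -0.045 to 0.20. The cause was not tested. Ccnd2 and Cdkn2c lie near the filter and had a value in 15 and 16 of the 20 settings.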
